A study of Homo sapiens with 4 samples.

Results

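The old SINE and LINE repeats of the human genome were examined for H3K4me3, the histone mark of active promoters, after inhibition of KDM5. The cells were HCC1428, a cultured line of luminal breast cancer. The repeats were taken as every subfamily of the repeat table whose class is SINE and whose family is not Alu, or whose class is LINE and whose family is not L1. This gave 60 of 15583 subfamilies, 9 of them SINE and 51 LINE, in 13 families: 25 subfamilies of CR1, 16 of L2, 5 of MIR, 4 of RTE-X, 2 of RTE-BovB and 1 each of 5S-Deu-L2, Dong-R4, I-Jockey, L1-Tx1, Penelope, tRNA, tRNA-Deu and tRNA-RTE. Cells received 2.5 µM C48, a KDM5 inhibitor, or DMSO, the vehicle, and were collected on day 5, with 2 CUT&Tag libraries in each group. CUT&Tag uses an antibody to bring the transposase Tn5 to a histone mark, so that the DNA beside the mark is cut and sequenced. The labels call the 2 libraries of a group biological replicates; whether these came from separate cultures is not stated there. The p-values measure the spread between these libraries, which may be technical, and all of them come from 1 cell line.

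KDM5 enzymes are demethylases that remove methyl groups from lysine 4 of histone H3, and the study asked, among other things, whether their inhibition changes the mark at repeat elements. SINEs are short retrotransposons transcribed by RNA polymerase III from an internal promoter, and LINEs are longer ones that encode their own reverse transcriptase. MIR is a SINE derived from a tRNA gene, and its 3′ end resembles that of L2, the LINE whose enzyme is thought to have copied it. CR1 is a LINE group that is abundant in birds and reptiles and is kept in mammals as fossil copies such as L3. All of these stopped moving long ago, so their copies have diverged from each other and have lost many of their CG dinucleotides, and some MIR and L2 copies are known to lie in enhancers. Alu and L1, by contrast, hold the elements that moved in recent primate evolution. L1 also has older subfamilies, and it was taken whole here, without a split by age.

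A few genomic copies show what such an element looks like at the sequence level, and were chosen as the MIR peak and the L2 peak with the largest rise in H3K4me3 and the peak of either family with the largest fall. The sequences are the plus strand of hg38 with CG dinucleotides in capitals, whole for the first pair and the central 300 bases of the peak for the last. They follow the peak and not the ends of the repeat, which were not mapped. They may therefore hold flanking DNA, and their CG counts are those of the window.
MIR3, chr3:193835840-193836127, higher in C48: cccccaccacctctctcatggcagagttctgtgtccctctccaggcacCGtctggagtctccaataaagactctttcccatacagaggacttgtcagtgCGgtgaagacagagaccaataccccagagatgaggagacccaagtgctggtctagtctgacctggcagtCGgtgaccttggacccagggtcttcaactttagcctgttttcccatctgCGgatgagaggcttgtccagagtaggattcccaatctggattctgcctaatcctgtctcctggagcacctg
L2c, chr3:129487932-129488201, higher in C48: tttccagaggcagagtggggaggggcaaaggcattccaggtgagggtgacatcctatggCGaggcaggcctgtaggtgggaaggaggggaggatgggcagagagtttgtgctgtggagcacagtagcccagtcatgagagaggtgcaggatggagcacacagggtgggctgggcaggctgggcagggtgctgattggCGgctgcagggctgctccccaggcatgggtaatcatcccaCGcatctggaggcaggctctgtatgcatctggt
MIRb, chr20:32820283-32820582, lower in C48: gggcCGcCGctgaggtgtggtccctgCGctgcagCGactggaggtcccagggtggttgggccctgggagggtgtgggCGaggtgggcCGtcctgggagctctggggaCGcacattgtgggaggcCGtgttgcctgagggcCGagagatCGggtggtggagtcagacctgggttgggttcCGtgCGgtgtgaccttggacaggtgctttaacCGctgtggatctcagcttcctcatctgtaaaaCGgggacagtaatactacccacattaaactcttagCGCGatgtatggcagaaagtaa
The MIR3 peak holds 4 CG dinucleotides in 288 bases and the L2c peak 3 in 270 bases, whereas the MIRb window holds 16 in 300 bases. The core of the B box, an element of internal RNA polymerase III promoters, searched for as the 9 letters TTCGANNCC on both strands, was in none of the 3 sequences. It was in 2.61% of the 300-base centres of 43605 tested peaks, so its absence from these windows says only that the letters are not there.

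The libraries held 11.7 and 14.0 M repeat counts in C48, against 14.8 and 11.3 M in DMSO, of which 2167298 and 2605901 counts in C48 and 2113159 and 1610153 counts in DMSO fell to the 60 subfamilies. Aligned depth, read from the peak table, ran from 58.4 to 88.4 M tags. Of 7 luminal marker genes, 4 had a promoter peak in the annotation: FOXA1 (417 and 453 tags per 10 M as deposited in C48, against 738 and 709 in DMSO), KRT8, KRT18 and, near 0 in DMSO, ESR1 (7.02 and 3.99 in C48, against 0.68 and 0.93 in DMSO). The luminal genes GATA3, EPCAM and CDH1 had none. No promoter peak was annotated for the 3 blood or the 3 stromal and endothelial markers, and of 3 basal markers only TP63 had one, at no more than 1.03 tags per 10 M. Since luminal markers lacked a peak too, its absence does not tell cell types apart.

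The ancient subfamilies held a larger part of the repeat counts after C48. Their share of all repeat counts was 18.6% in both C48 libraries, against 14.3% and 14.2% in the DMSO libraries, a difference of 4.32 percentage points. MIR held 10.1% in both C48 libraries, against 7.78% and 7.72% in DMSO, L2 held 7.65% and 7.61% in C48, against 5.80% and 5.83% in DMSO, and CR1 held 0.567% and 0.568% in C48, against 0.432% in both DMSO libraries. The groups did not overlap in any of these shares, and replicates lay within 0.1 percentage point of each other. With 2 libraries per group a two-sided exact permutation test cannot go below p = 0.33, and each of the 6 tests of shares and ratios gave that value, also after Benjamini-Hochberg adjustment. Simple repeats moved the other way in the same libraries, with 22.9% and 23.4% of the counts in C48, against 32.1% and 31.7% in DMSO, and the share of a family depends on that. Among interspersed repeats alone (SINE, LINE, LTR and DNA), the ancient subfamilies held 27.9% and 28.1% in C48, against 26.1% and 25.7% in DMSO. Per 100 aligned tags they had 3.71 and 3.59 counts in C48, against 2.39 and 2.49 in DMSO, 1.49 times as many.

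**Figure D1:**
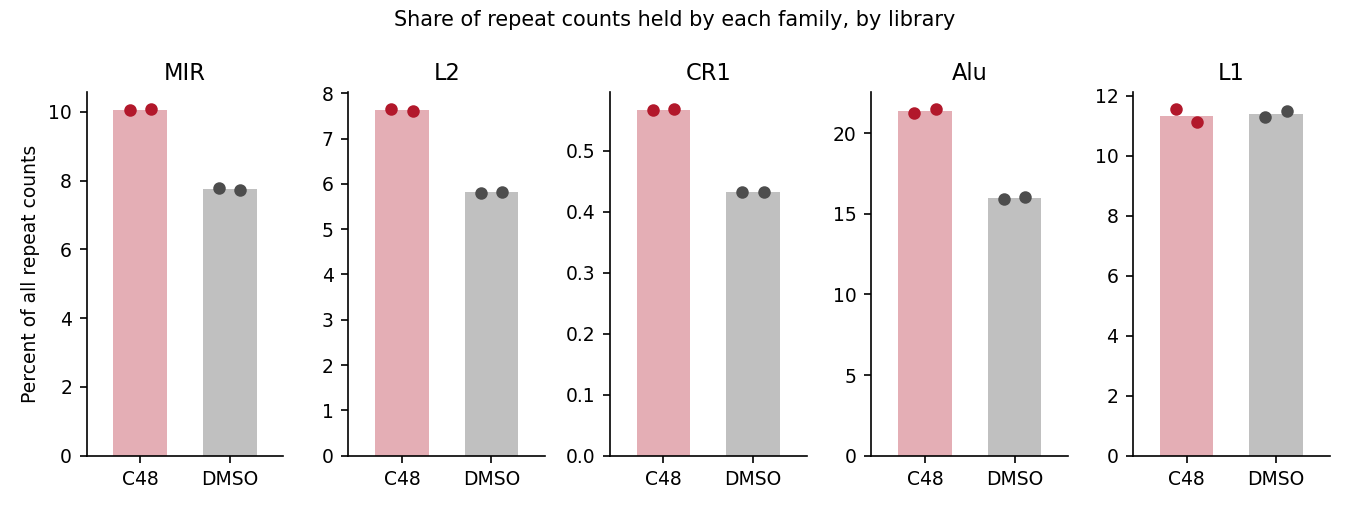
Percent of all repeat counts held by MIR, L2, CR1, Alu and L1 in each library (points) with the mean of each group (bars), C48 on the left of each panel and DMSO on the right. MIR stood at 10.1% in both C48 libraries, against 7.78% and 7.72% in DMSO, while L1 was at 11.5% and 11.1% in C48, against 11.3% and 11.5% in DMSO.

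Levels are given as CPM, counts per M repeat counts scaled with TMM factors, which take most repeats as unchanged. In the family test (edgeR quasi-likelihood, counts summed per family), MIR had 103016 and 103306 CPM in the C48 libraries, against 76104 and 75075 in the DMSO libraries, L2 had 78376 and 78037 CPM in the C48 libraries, against 56768 and 56683 in the DMSO libraries, and CR1 had 5813 and 5823 CPM in the C48 libraries, against 4222 and 4198 in the DMSO libraries. On the log2 scale the differences were 0.45 ± 0.01 for MIR, 0.46 ± 0.01 for L2 and 0.47 ± 0.01 for CR1 (SE, n = 2 each), with edgeR adjusted p-values of 9.38e-07, 6.65e-07 and 6.65e-07. The 3 families moved by much the same amount, and the log2 ratio of CR1 to L2 within a library differed by only 0.0034 between C48 and DMSO. Of the 13 ancient families, 11 could be tested, and 10 were higher in C48 and none lower, beside 67.8% of all 59 families tested being higher. With size factors that DESeq2 took from the families themselves, RTE-X (-0.012), RTE-BovB (-0.031), tRNA-Deu (-0.0074) and Dong-R4 (-0.019) turned to just below 0, and MIR, L2 and CR1 were still called higher, at 0.15, 0.16 and 0.17. The median log2 difference was 0.45 over the 11 and 0.30 over all 59. The exception was Dong-R4, with 15.4 and 17.2 CPM in the C48 libraries, against 13.1 and 13.8 in the DMSO libraries and a difference of 0.29 ± 0.12 (edgeR adjusted p = 0.053).

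Alu, the young SINE family, had a log2 difference close to that of MIR, and L1 had one well below that of L2. Alu had a log2 difference of 0.49 ± 0.02 (edgeR adjusted p = 8.54e-07), and the log2 ratio of MIR to Alu counts was -1.08 and -1.09 in C48, against -1.03 and -1.05 in DMSO, a difference of -0.04. L1 had a difference of 0.07 ± 0.02 (edgeR adjusted p = 0.0287), a direction that turned to -0.00646 with the column total as library size and to -0.20 with TMM factors taken from interspersed repeats. The call for L1 was also lost without C48 replicate 1 (0.03), without DMSO replicate 1 (0.05) or without DMSO replicate 2 (0.06). The log2 ratio of L2 to L1 counts, which needs no scaling between libraries, was -0.59 and -0.55 in C48, against -0.96 and -0.98 in DMSO, a difference of 0.40. Neither ratio overlapped between the groups, and the exact permutation p was 0.33 for each, the smallest it can be.

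Among single subfamilies the direction was nearly uniform. Of the 60, 45 had enough counts for the test, and the other 15 held at most 12 counts in any library, with MamRTE2 and X15_LINE at 0 in all 4. The 45 were tested with all 4364 subfamilies that passed the count filter (edgeR, adjusted over all of them). Of the 45, 37 were higher in C48 and 0 lower, beside 31.6% of all tested subfamilies higher and 33.4% lower. None of the 45 was lower at an unadjusted p under 0.05 either. The DESeq2 Wald test called 36 of them higher and 0 lower, beside 1033 higher and 1215 lower of all 4364. The median log2 difference was 0.44 over the 45 and 0.02 over all subfamilies tested. Both C48 libraries lay above both DMSO libraries in 39 of the 45, and none of the 45 had the opposite separation. Over all 4364 tested subfamilies, 41.5% had C48 above DMSO, and 1767 had C48 below DMSO. By family, 5 of 5 tested MIR, 9 of 11 L2, 13 of 18 CR1 and 4 of 4 RTE-X subfamilies were higher. The same test put 53 of 53 Alu subfamilies higher and none lower, and 64 of 132 L1 subfamilies higher and 36 lower.

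The scaling decides part of these numbers. TMM factors from interspersed repeats alone lowered the log2 differences by about 0.26, moved the median of all subfamilies to -0.24, and left 26 of the 45 higher and 0 lower at an adjusted p under 0.05, with MIR at 0.19, L2 at 0.20 and CR1 at 0.20. Of all 4364 subfamilies tested, those factors left 786 higher and 2013 lower. Aligned tags as library size raised the log2 differences by about 0.13. They gave 39 of the 45 higher, beside 1610 higher and 1113 lower of all 4364. Counts from the fly spike-in were not used here, so a change shared by all repeats cannot be told apart from the scaling. In bulk cells, more cells with the mark and more mark per cell cannot be told apart either.

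**Figure D2:**
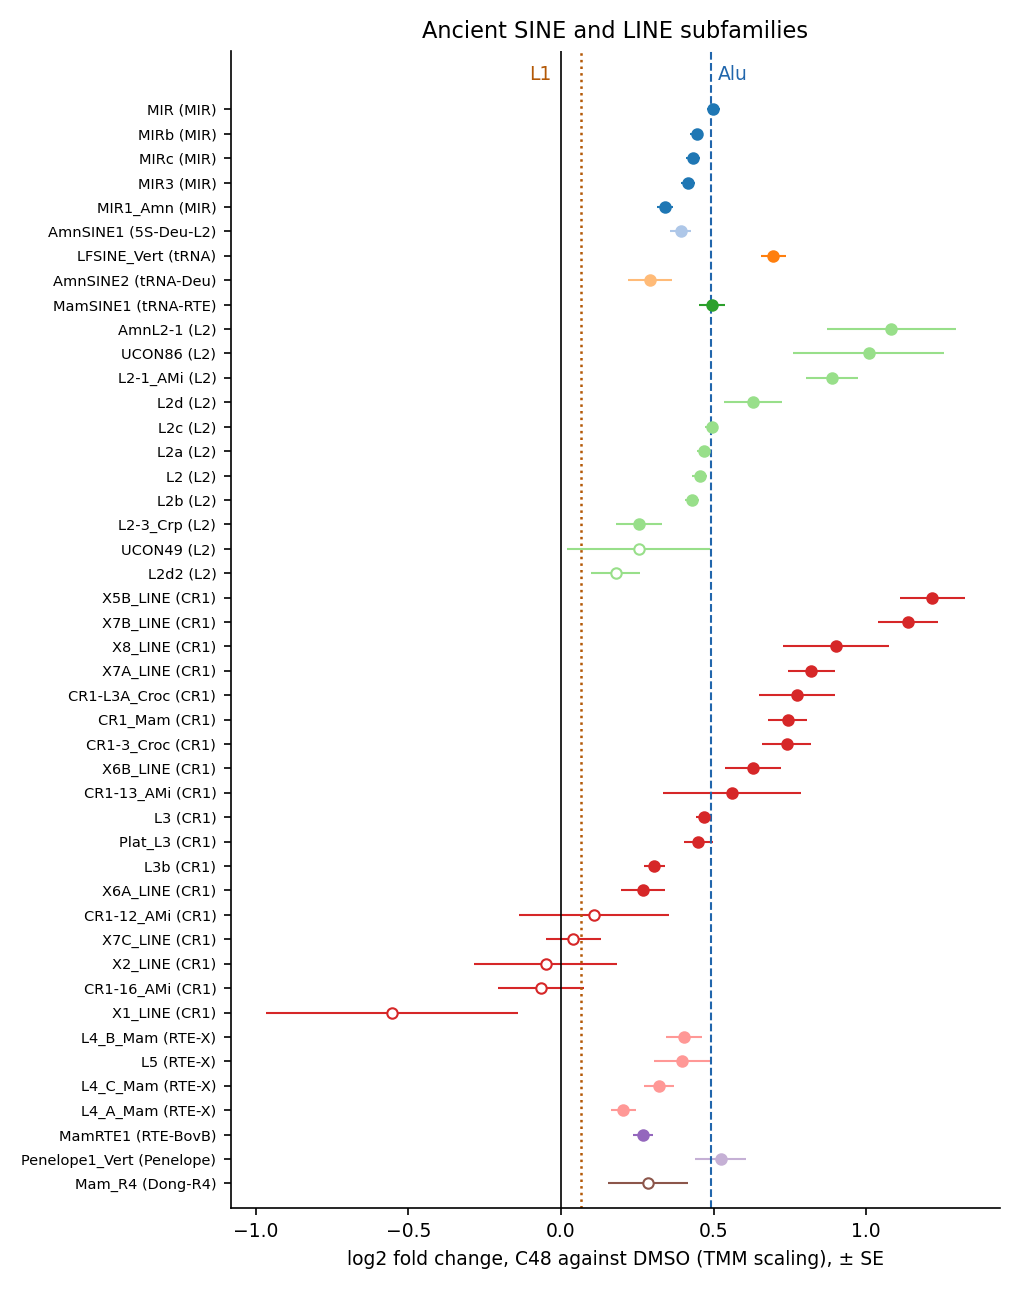
Log2 difference between C48 and DMSO for each of the 45 tested subfamilies, grouped by family and coloured by it, with bars of 1 SE. Filled points passed the test, open points did not, and the dashed and dotted lines mark the Alu and L1 families at 0.49 and 0.07. All 9 SINE subfamilies are filled and lie above 0, and X1_LINE at -0.55 is the lowest.

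The MIR subfamilies differ in a few diagnostic bases and in age, and moved almost as 1 block. MIRb, the most counted, had 37803 and 37975 CPM in the C48 libraries, against 27995 and 27686 in the DMSO libraries, and MIR had 27254 and 27287 CPM in the C48 libraries, against 19349 and 19231 in the DMSO libraries. MIRc had 17341 and 17330 CPM in the C48 libraries, against 12964 and 12743 in the DMSO libraries. MIR3 had 17429 and 17525 CPM in the C48 libraries, against 13249 and 12926 in the DMSO libraries. In each case the C48 libraries were nearly equal to each other and well above DMSO, with log2 differences of 0.44 ± 0.02 for MIRb, 0.50 ± 0.02 for MIR, 0.43 ± 0.02 for MIRc and 0.42 ± 0.02 for MIR3 (SE). The fifth subfamily, MIR1_Amn, named for its presence in amniotes, moved least, with 3188 and 3189 CPM in the C48 libraries, against 2547 and 2488 in the DMSO libraries, a difference of 0.34 ± 0.03 (edgeR adjusted p = 1.50e-08). With TMM factors from interspersed repeats its difference was 0.08 and it lost its call. Within the family the composition was almost the same in all libraries: MIRb made up 36.7% and 36.8% of MIR counts in C48, against 36.8% and 36.9% in DMSO, and MIR1_Amn 3.09% in both C48 libraries, against 3.35% and 3.31% in DMSO. MIR itself took 26.5% and 26.4% in C48, against 25.4% and 25.6% in DMSO.

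The L2 LINEs showed the same pattern. L2a had 28019 and 27839 CPM in the C48 libraries, against 20167 and 20223 in the DMSO libraries, and L2c had 20331 and 20354 CPM in the C48 libraries, against 14482 and 14417 in the DMSO libraries. L2b had 19546 and 19430 CPM in the C48 libraries, against 14494 and 14429 in the DMSO libraries. L2 had 10155 and 10102 CPM in the C48 libraries, against 7399 and 7387 in the DMSO libraries. These 4 subfamilies, which hold nearly all L2 counts, differed by 0.47 ± 0.02 for L2a, 0.49 ± 0.02 for L2c, 0.43 ± 0.02 for L2b and 0.45 ± 0.02 for L2 on the log2 scale (SE), and L2a took 35.7% of L2 counts in both C48 libraries, against 35.5% and 35.7% in DMSO. The rarer L2 subfamilies spread more widely. AmnL2-1 had the largest difference among them, with 7.47 and 6.94 CPM in the C48 libraries, against 3.57 and 3.18 in the DMSO libraries (1.08 ± 0.21, edgeR adjusted p = 2.90e-04), from no more than 95 counts in a library. L2d had 38.1 and 40.0 CPM in the C48 libraries, against 26.6 and 23.8 in the DMSO libraries (0.63 ± 0.10), and L2-1_AMi and UCON86 also rose, by 0.89 and 1.01. L2d2 had the smallest difference, with 60.2 and 60.5 CPM in the C48 libraries, against 55.9 and 50.5 in the DMSO libraries (0.18 ± 0.08, edgeR adjusted p = 0.0574), and passed when DMSO replicate 1 was left out. L2-3_Crp, at 0.26, did not pass without C48 replicate 1 (0.15) or without DMSO replicate 2 (0.22), and L2-3_Crp and L2d2 turned to -0.0081 and -0.085 with TMM factors from interspersed repeats.

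**Figure D3:**
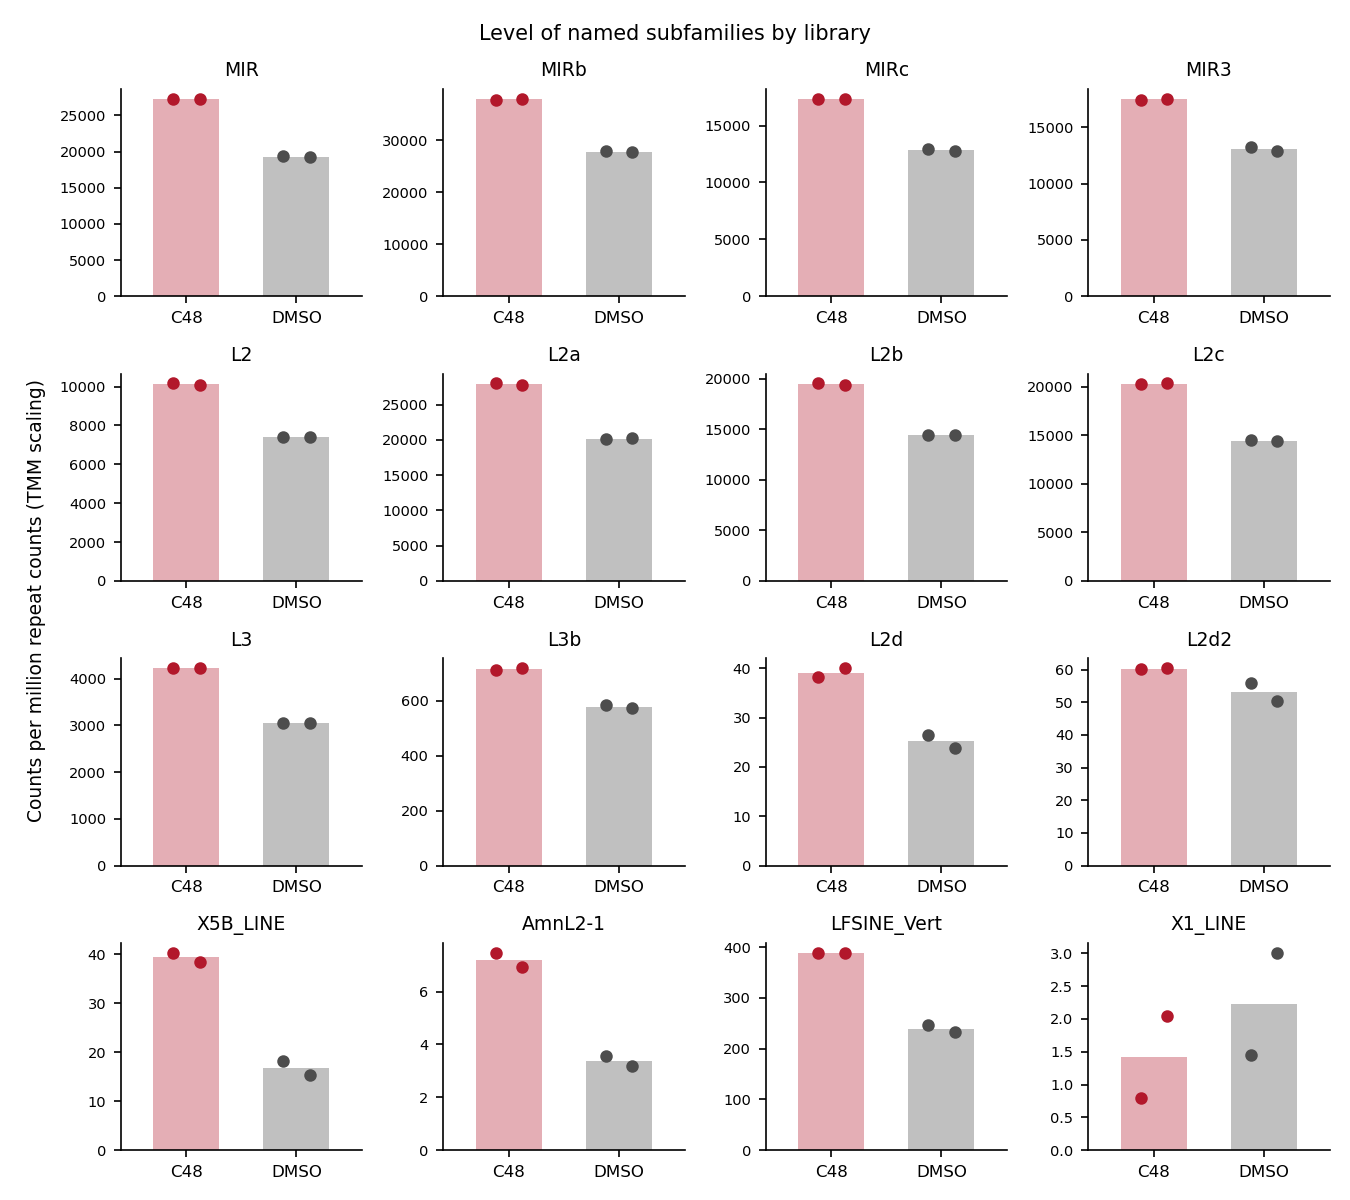
CPM, after TMM scaling, of 16 named subfamilies in each library (points) with the mean of each group (bars), C48 left and DMSO right, each panel on its own axis from 0. The C48 points lie above the DMSO points in every panel but that of X1_LINE, where 0.791 and 2.05 in C48 interleave with 1.45 and 3.01 in DMSO.

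Of the CR1 LINEs, L3 carried most of the counts. It had 4221 and 4227 CPM in the C48 libraries, against 3050 and 3060 in the DMSO libraries, a log2 difference of 0.47 ± 0.03 (edgeR adjusted p = 2.01e-10), and made up 72.6% of CR1 counts in both C48 libraries, against 72.2% and 72.9% in DMSO. L3b, a close relative, had 712 and 719 CPM in the C48 libraries, against 586 and 572 in the DMSO libraries (0.31 ± 0.03), so it moved less than L3 did in the same libraries, although that difference between the subfamilies was not tested. With TMM factors from interspersed repeats L3b was at 0.04 and lost its call. The largest rise of all 45 was in X5B_LINE, with 40.3 and 38.4 CPM in the C48 libraries, against 18.2 and 15.4 in the DMSO libraries (1.22 ± 0.11, edgeR adjusted p = 4.68e-08), followed by X7B_LINE at 1.14. X5B_LINE took 0.694% and 0.660% of CR1 counts in C48, against 0.432% and 0.367% in DMSO. At the other end, X1_LINE had 0.791 and 2.05 CPM in the C48 libraries, against 1.45 and 3.01 in the DMSO libraries (-0.55 ± 0.41, edgeR adjusted p = 0.253), from 9 and 28 counts in C48, against 22 and 35 in DMSO. Its libraries overlapped between the groups, and it was called lower (-1.44) when C48 replicate 2 was left out. CR1-13_AMi, at 0.56, lost its call without either C48 library, without DMSO replicate 2, and with TMM factors from interspersed repeats (0.30).

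The smaller families hold 1 to 4 tested subfamilies each. LFSINE_Vert, a SINE known from lobe-finned fish and kept in land vertebrates, had 388 and 389 CPM in the C48 libraries, against 246 and 233 in the DMSO libraries, the largest rise of the 9 SINE subfamilies at 0.70 ± 0.04 (edgeR adjusted p = 5.45e-10). MamSINE1 had 452 and 423 CPM in the C48 libraries, against 305 and 316 in the DMSO libraries (0.49 ± 0.04), and AmnSINE1, some copies of which are known as developmental enhancers in mammals, had 586 and 586 CPM in the C48 libraries, against 439 and 454 in the DMSO libraries (0.39 ± 0.04). AmnSINE2 moved least of the SINEs, with 75.5 and 77.1 CPM in the C48 libraries, against 60.9 and 63.8 in the DMSO libraries (0.29 ± 0.07). All of these SINE values separated the groups. Among the LINEs, L4_B_Mam had 181 and 169 CPM in the C48 libraries, against 137 and 128 in the DMSO libraries (0.40 ± 0.06), the largest difference in RTE-X, and L4_A_Mam had 359 and 353 CPM in the C48 libraries, against 317 and 301 in the DMSO libraries (0.20 ± 0.04), the smallest. MamRTE1 of RTE-BovB had 867 and 832 CPM in the C48 libraries, against 705 and 704 in the DMSO libraries (0.27 ± 0.03). With TMM factors from interspersed repeats L4_A_Mam turned to -0.06, and AmnSINE2 (0.03), L4_B_Mam (0.14) and MamRTE1 (0.00587) lost their calls. Penelope1_Vert, of a retrotransposon group apart from other LINEs, had 75.5 and 65.8 CPM in the C48 libraries, against 48.1 and 50.0 in the DMSO libraries (0.52 ± 0.08), and Mam_R4 of Dong-R4 had 15.4 and 17.2 CPM in the C48 libraries, against 13.1 and 13.8 in the DMSO libraries (0.28 ± 0.13, edgeR adjusted p = 0.0659).

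The spread between subfamilies followed their abundance. The 11 tested subfamilies with a mean of at least 10000 counts all rose, by 0.27 to 0.50, and so did the 11 with 1000 to 10000 counts, by 0.20 to 0.89. Of the 23 with fewer than 1000 counts, 15 rose, and their differences ran from -0.55 to 1.22. The 9 most counted subfamilies held 95.5% of all counts of the 60, so the shares above rest mostly on those 9. Among the 8 without a call the SE ran as high as 0.41 for X1_LINE, with 9 to 35 counts in a library, while X7C_LINE had 0.04 ± 0.09 with 376 to 508 counts.

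**Figure D4:**
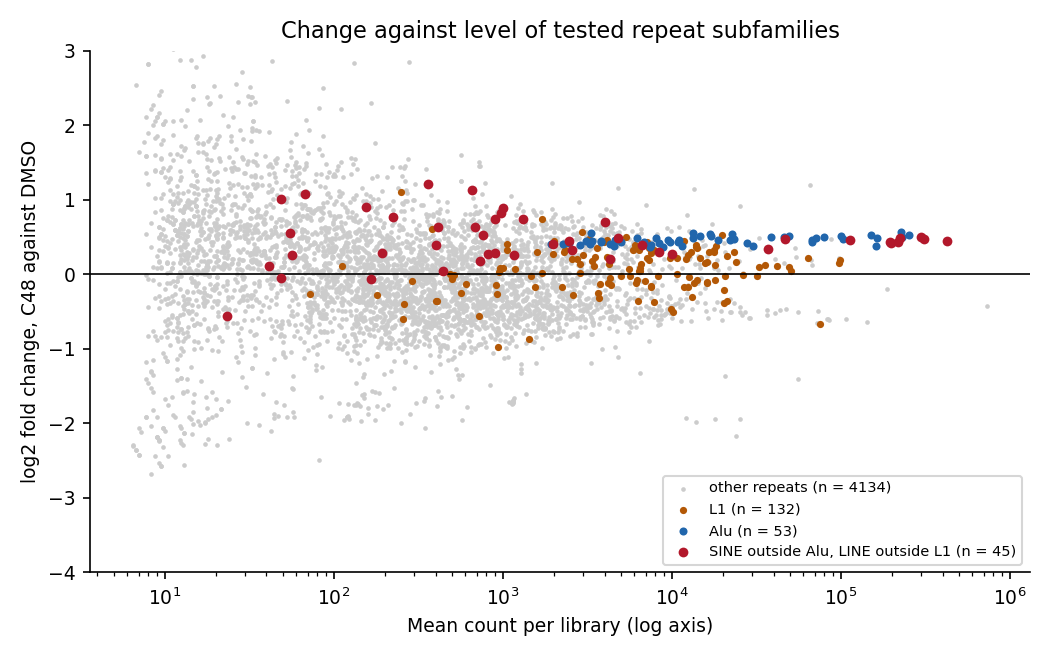
Log2 difference between C48 and DMSO against mean count per library (log axis) for the 4364 tested subfamilies, with ancient SINE and LINE subfamilies, Alu and L1 coloured over all other repeats; 11 other repeats lie outside the range shown. The abundant ancient subfamilies sit in the range of the abundant Alu subfamilies or just below it, between 0.27 and 0.50, and the rare ones scatter from -0.55 to 1.22.

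Single copies could be followed where a peak was centred in one of these elements, as the deposited annotation places it. Of 110018 merged peaks, 4457 were, and 877 of these had a mean of at least 5 tags per 10 M and were tested with all 43712 such peaks (limma on log2(value + 1), TMM scaling). Of the 877, 580 were higher in C48 and 89 lower, beside 37.3% of all tested peaks higher and 34.2% lower. Their median log2 difference was 0.73, against 0.08 over all tested peaks. By the deposited annotation 541 of the 877 lay in introns and 336 between genes, while all tested peaks include promoter peaks. Intron peaks had a median of 0.71 in these elements, with 66.7% higher and 11.6% lower. All tested intron peaks had 0.20, with 42.8% higher and 30.6% lower. Intergenic peaks had 0.79 in these elements, with 65.2% higher and 7.74% lower. All tested intergenic peaks had 0.47, with 50.8% higher and 11.5% lower. CR1 copies had a median of 1.17, with 25 of 32 higher and 1 lower, L2 copies 0.85, with 294 of 429 higher and 38 lower, and MIR copies 0.60, with 248 of 397 higher and 48 lower. With values as deposited, without TMM factors, the median was 1.04 in these elements and 0.40 over all tested peaks, so TMM scaling lowered them by 0.31 and 0.32. As deposited, 676 of the 877 were higher and 38 lower, beside 54.7% and 20.9% of all tested peaks. The paper reports fewer fly spike-in reads in its C48 samples. It states that H3K4me3 peaks of C48 are undercounted when the spike-in is left out. Neither scaling here used it, and whether any fall remains with spike-in scaling was not tested. The peak differences that follow are after TMM scaling unless said otherwise. Peaks in Alu and L1 had medians of 0.63 and 0.29. The peaks are not a complete account of the families, since the reads of a subfamily that lie outside any peak also enter its count. MIR peaks held 14.1 and 14.5 tags per 100 MIR counts in C48, against 14.9 and 14.2 in DMSO, and CR1 peaks held 14.2 and 14.1 tags per 100 CR1 counts in C48, against 11.7 and 11.4 in DMSO, where tags and RepEnrich2 counts are different units.

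Weak peaks and strong ones did not move alike. Among peaks of 5 to 20 tags per 10 M in ancient elements the median was 0.86, with 292 of 490 higher and 43 lower, and among those of 20 to 100 it was 0.80, with 246 of 297 higher and 13 lower. Among the 90 peaks of at least 100 tags it was 0.08, with 42 higher and 33 lower. The same order held over all tested peaks, at 0.60, 0.29 and -0.44. In the weakest class 59.6% of the peaks in ancient elements were higher, beside 51.0% of all tested peaks, and 8.78% lower, beside 6.87%. From 20 to 100 it was 82.8% higher, beside 49.5%, and 4.38% lower, beside 18.1%. In the strongest class it was 46.7% higher, beside 14.9%, and 36.7% lower, beside 72.0%. As deposited the medians were 1.14, 1.13 and 0.42 in ancient elements, and 0.90, 0.61 and -0.10 over all tested peaks. Of the 90 strong ones 58 were then higher and 17 lower, beside 31.2% and 47.9% of all strong peaks. Near and far from transcription starts the medians were close: 0.68 for the 297 peaks within 2 kb of a transcription start, where all tested peaks had -0.20, and 0.76 for the 580 farther away, where all had 0.47. Peaks were assigned to these elements by the feature that the deposited annotation names for them. A peak named there for a promoter or exon could therefore not be counted here. All tested peaks do include promoter peaks, so the sets differ in kind near a start. The classes of strength and of CG count were not matched for this either. The CG count of the central 300 bases followed the change as well. It had a median of 5 in the 877 peaks and of 16 in all tested peaks. The 443 peaks with 0 to 5 CG had a median log2 difference of 1.02, the 381 with 6 to 15 CG 0.56 and the 53 with at least 16 CG -0.20, beside 0.79, 0.43 and -0.29 over all tested peaks of the same classes. Strength, position and CG count were each taken alone, and their separate parts were not tested.

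**Figure D5:**
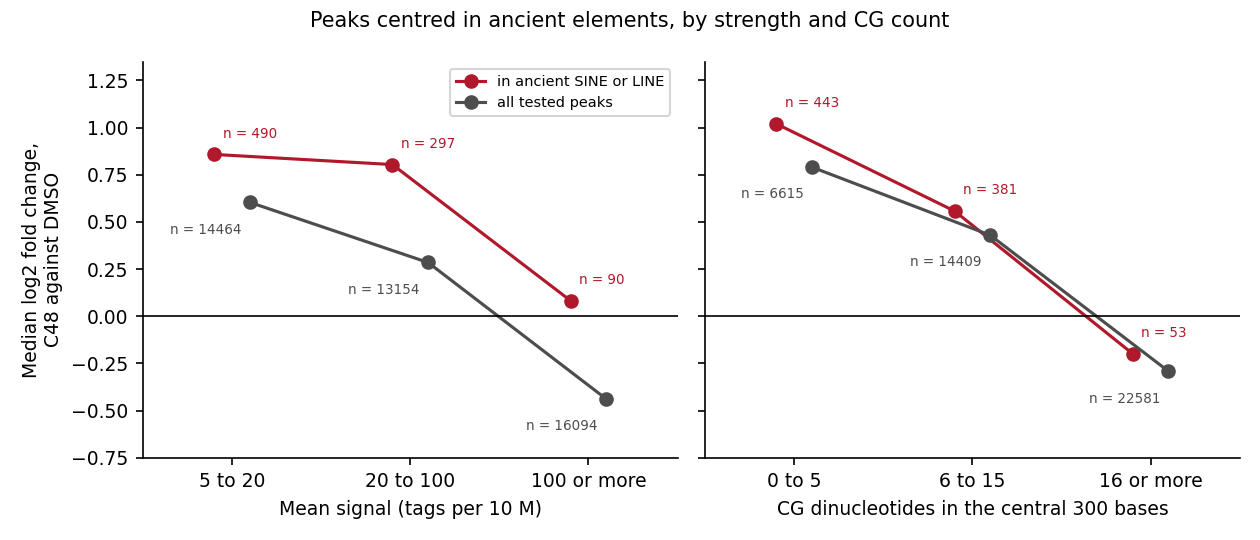
Median log2 difference between C48 and DMSO of tested peaks centred in ancient SINE or LINE elements and of all tested peaks, by mean signal (left, tags per 10 M) and by CG dinucleotides in the central 300 bases (right), with the number of peaks beside each point. In ancient elements it is 0.86, 0.80 and 0.08 by strength and 1.02, 0.56 and -0.20 by CG count.

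Copies were ranked among called peaks with a mean of at least 20 tags per 10 M whose libraries did not overlap between groups. The largest rises below reached that mean only through the C48 libraries. Rises and falls were picked by size in this same test, so their differences and p-values are no separate support. Only main chromosomes other than chromosome 8 were searched. The copies with the largest changes lay in introns or between genes, as every tested peak in these elements did under the annotation rule given above. Their tags are given per 10 M after TMM scaling. The L2c peak printed above lies in IFT122, a gene of ciliary transport, in an intron by the deposited annotation and over an exon of that gene in GENCODE. It had 38.2 and 39.8 tags per 10 M in the C48 libraries, against 1.27 and 3.66 in the DMSO libraries, a difference of 3.62 ± 0.27, limma adjusted p = 5.27e-18. An L2 copy at chr1:22457981-22458435, in an intron of ZBTB40, had 48.5 and 43.7 tags per 10 M in the C48 libraries, against 4.31 and 3.66 in the DMSO libraries (3.24 ± 0.22, limma adjusted p = 1.08e-19). The MIR3 peak printed above lies between genes near LINC02038. It had 72.3 and 59.3 tags per 10 M in the C48 libraries, against 5.84 and 6.62 in the DMSO libraries (3.20 ± 0.18, limma adjusted p = 2.50e-22). The 3 largest falls, named by the same rule and likewise without spike-in scaling, follow. A Penelope1_Vert copy at chr17:56699402-56699803, between genes with NOG as the nearest start, had 19.3 and 17.0 tags per 10 M in the C48 libraries, against 40.2 and 39.6 in the DMSO libraries (-1.10 ± 0.16, limma adjusted p = 4.14e-08), or -0.77 as deposited, although its subfamily as a whole rose. The MIRb peak printed in part above lies in an intron of MAPRE1, which encodes a microtubule end-binding protein, 478 bases from its start. It had 249 and 264 tags per 10 M in the C48 libraries, against 464 and 442 in the DMSO libraries (-0.82 ± 0.06, limma adjusted p = 5.03e-19), or -0.48 as deposited. A MIRc copy at chr7:38178184-38178772, in an intron of STARD3NL and 233 bases from its start, had 242 and 233 tags per 10 M in the C48 libraries, against 387 and 417 in the DMSO libraries (-0.75 ± 0.06, limma adjusted p = 5.96e-17), or -0.42 as deposited.

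For some subfamilies the strongest peak can be set beside the total. The following were picked after their values were seen, and their levels are as deposited, without TMM factors. The only peak in X5B_LINE, at chr17:44501940-44502318 in an intron of GPATCH8, had 132 and 129.6 tags per 10 M in the C48 libraries, against 51.6 and 47.4 in the DMSO libraries, and its log2 difference was 1.39 as deposited and 1.05 ± 0.10 after TMM scaling. This 1 peak held 771 and 942 tags in the C48 libraries, against 456 and 306 in the DMSO libraries. The whole subfamily had 459 and 526 counts in C48, against 276 and 179 in DMSO, in a different unit. Its rise is therefore not shown to extend beyond this locus. How much of the rise of X5B_LINE lay at other copies was not tested. In X6B_LINE, a peak at chr5:155088858-155089136 had 34.6 and 31.2 tags per 10 M in the C48 libraries, against 1.24 and 1.39 in the DMSO libraries, a difference of 3.87 as deposited and 3.61 ± 0.28 after TMM scaling. In L2-1_AMi, a peak at chr1:40095225-40095476, in an intron of PPT1, had 26.2 and 31.5 tags per 10 M in the C48 libraries, against 4.30 and 3.10 in the DMSO libraries, a difference of 2.67 as deposited and 2.38 ± 0.25 after TMM scaling. The strongest peak of LFSINE_Vert, at chr11:67120738-67121204 in an intron of KDM2A, itself a histone demethylase gene, had 323 and 298 tags per 10 M in the C48 libraries, against 205 and 194 in the DMSO libraries, a difference of 0.63 as deposited and 0.30 ± 0.06 after TMM scaling. The strongest peaks of the 9 most counted subfamilies went both ways: after TMM scaling 3 were higher and 6 lower (limma adjusted p under 0.05), and as deposited 3 were higher, 4 lower and 2 not called. Whether those lower would stay lower with spike-in scaling was not tested. The strongest MIR peak, at chr19:35648148-35649016 near the start of COX6B1, had 559 and 574 tags per 10 M in the C48 libraries, against 611 and 614 in the DMSO libraries, a difference of -0.11 as deposited and -0.45 ± 0.05 after TMM scaling. The strongest MIR3 peak, near the start of HERPUD1, differed by -0.34 as deposited and -0.68 ± 0.04 after TMM scaling, and that of L2b near SYMPK by -0.06 as deposited and -0.40 ± 0.05 after TMM scaling. Those of L2c near SPATA20 and L3 near GSN were higher, by 0.70 as deposited and 0.36 ± 0.07 after TMM scaling for L2c and 0.51 as deposited and 0.17 ± 0.05 after TMM scaling for L3.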

How the data were processed

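The authors made H3K4me3 CUT&Tag libraries from HCC1428 cells and aligned reads to hg38, with the fly genome added for spike-in, by Bowtie2 2.3.4.1, per the submitters' processing notes. The deposited repeat table holds estimated counts from RepEnrich2, which divides a read among all subfamilies it matches, so near-identical subfamilies are less certain. All values were whole and entered the tests unchanged. The deposited peak table holds a signal, HOMER tags per 10 M aligned tags. Its values were whole multiples of 1 tag in 100% of cases within 0.1 tags, which gave the aligned depth. The authors' peak score was used in no test.

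The authors scaled by spike-in; such counts were not used here, and TMM factors took their place (edgeR 4.0.16, R 4.3.3). Subfamilies that passed filterByExpr, and counts summed per family with the same scaling, were tested by edgeR's quasi-likelihood test, and peaks by limma-trend (limma 3.58.1) on log2(value + 1) at a mean of at least 5, with Benjamini-Hochberg adjustment and a threshold of 0.05. The scripts were tested on simulated data. DESeq2 1.42.0, other scalings and filters, a replicate block and leaving out each library were alternatives. Groups came from sample titles; the treated columns carry another tag and were matched through sample descriptions. The subfamilies and lists were chosen with earlier results of these data known. Named were the main MIR, L2 and L3 subfamilies, the largest rise and the largest fall, or smallest rise, in each family, and the 3 largest rises and falls among called, non-overlapping peaks of at least 20 tags. These peaks, and those printed as sequence, were taken from main chromosomes other than chromosome 8.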

Additional observations from a re-analysis of the deposited data

How the results depend on the processing

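The spread between 2 libraries a group, the missing spike-in scaling and the sharing of reads between subfamilies limit every value. The shares and both ratios, which no test of this size can call, kept their direction in every alternative run, and the MIR, L2 and CR1 families kept direction and call, at 0.15 to 0.59. Leaving out each library gave a median log2 difference of 0.41 to 0.45 over the ancient subfamilies tested, beside -0.0036 to 0.013 over all tested. L2-1_Crp, not tested with all libraries, was at -3.20 without C48 replicate 1, and X1_LINE was at -1.44 without C48 replicate 2. Subfamilies higher in C48 numbered 36 with the column total, without a filter, at a mean of at least 100 counts and with DESeq2, 37 with DESeq2 size factors, 39 with aligned tags and 26 with TMM factors from interspersed repeats. Without a filter 1362 of all 10171 tested were higher and 1478 lower, and at a mean of at least 100 counts 1101 and 1095 of 2922. Of all 4364 tested in the other runs, 1203 were higher and 1598 lower with the column total, and 1610 and 1113 with aligned tags. DESeq2 size factors gave 1361 and 1465, and the DESeq2 Wald test 1033 and 1215. With TMM factors from interspersed repeats 786 of them were higher and 2013 lower. Those last factors turned the direction of CR1-12_AMi (-0.15), L2-3_Crp (-0.0081), L2d2 (-0.085), L4_A_Mam (-0.060), UCON49 (-0.0086), X7C_LINE (-0.22) and the L1 family (-0.20), and 9 other subfamilies lost their calls. Aligned tags turned CR1-16_AMi (0.062) and X2_LINE (0.078), a mean of at least 100 counts CR1-16_AMi (0.028), the column total X7C_LINE (-0.031) and L1 (-0.0065), and leaving out C48 replicate 2 X2_LINE (0.098) and X7C_LINE (-0.029, the lowest of its values with 1 library left out, the highest being 0.092). DESeq2 with its own size factors over families turned Dong-R4 (-0.019), RTE-BovB (-0.031), RTE-X (-0.012), tRNA-Deu (-0.0074) and L1 (-0.23). Of the peaks in ancient elements, 311 were higher and 29 lower at a mean of at least 20, where fewer were tested. With values as deposited 38 of the 877 were lower, beside 20.9% of all tested peaks. The main run called 37.3% of all tested peaks higher and 34.2% lower. These shares are not given here for a mean of at least 20 or for the replicate block. An edgeR count test on whole tags recovered from the peak signal, chosen after seeing the data, counted calls in either direction. It called 668 of the 877 tested peaks in ancient elements, beside 31195 of all 43712 tested peaks. The replicate numbers do not pair the samples (correlation of same-numbered deviations -0.05). With the number as a block, 37 of the 45 subfamilies were higher and 0 lower, beside 1322 and 1409 of all 4364. In that run 577 of the 877 peaks were higher and 89 lower. No call of the 45 changed, while the L1 family lost its call.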
